A study of Mus musculus with 4 samples.

Results

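The nuclear-encoded subunits of respiratory complexes I and III were followed across the cell classes of the injured mouse kidney. The members were all genes whose symbol begins with Nduf followed by a, b, c, s, v or ab and a number, or with Uqcr, pseudogene names ending in -ps left out. This gave 52 of the 57132 genes in the tables, 44 Nduf genes and 8 Uqcr genes. The rule itself used symbols only and no measured value, but it was chosen with earlier results of these data known.

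The data are single-cell RNA sequencing libraries made with the 10x Genomics platform from fresh kidney tissue of 4 wild-type mice after contrast-induced acute kidney injury (CIAKI), a model in which an imaging contrast agent damages the kidney. All 4 samples form 1 group and carry the label batch 1; they are named mouse 1 to mouse 4 after the numbers in their titles. The labels give no age, sex, agent, dose or time after induction, and no uninjured mice were analysed here, so no value below measures an effect of the injury. The design text calls the samples independent biological replicates, and every test below compares cell classes within these 4 mice.

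Complex I (NADH dehydrogenase) takes electrons from NADH in its matrix arm, passes them along iron-sulphur clusters to ubiquinone, and pumps protons through its membrane arm. Complex III (the cytochrome bc1 complex) hands the electrons on to cytochrome c and pumps protons in turn. Both complexes also hold core subunits read from mitochondrial DNA, so their assembly draws on 2 genomes. Tubule segments that reabsorb much sodium, the proximal tubule and the thick ascending limb, are known for dense mitochondria, whereas neutrophils live largely on glycolysis.

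The 52 members were sorted by place in the complexes. The N module, which oxidises NADH, held 8 genes (among them Ndufv1, Ndufv2 and Ndufs1), and the Q module and the base of the matrix arm, where ubiquinone is reduced, also held 8 (among them Ndufs3, Ndufs7 and Ndufs8). The membrane arm held 20, Ndufab1, the mitochondrial acyl carrier protein, was kept apart, and complex III held 8 (Uqcrc1, Uqcrc2, Uqcrfs1, Uqcrb, Uqcrq, Uqcrh, Uqcr10 and Uqcr11). Ndufa4 and Ndufa4l2 formed a pair of their own, since the Ndufa4 protein is now counted as a subunit of complex IV. The other 5 members were paralog copies with very few molecules: Ndufb4b had 210 unique molecular identifiers (UMIs, each standing for 1 captured RNA molecule), and Ndufs6b, Ndufa11b, Ndufb4c and Ndufb11b had 1 to 3. No member was at 0, and UMI totals over all libraries reached 98970 for Ndufa4. In each of the 6 class comparisons 46 members passed the filter on low counts, and the paralog copies and Ndufa4l2 did not.

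The libraries held 36831995 to 105436725 UMIs, and 40826 of 48213 barcodes were kept as cells. Mouse 4 stood apart: its median cell held 2077 UMIs against 5549 to 5777 in the other mice, and ribosomal protein genes took a median 13.7% of a cell's UMIs against 1.48% to 2.35%. Cells fell into 59 clusters, grouped without the members, of which 42 were given a class name from marker genes and 17 (6575 cells) stayed unnamed. The largest unnamed cluster (2095 cells, 2089 of them from mouse 3) passed endothelial markers such as Pecam1, Kdr and Tie1. It is thus missing from the endothelial-like class, which held 1524 cells of mouse 3. Mouse 3 shared few tubular clusters with the others: its proximal tubule-like and thick ascending limb-like cells lay almost wholly in 4 clusters, of 515, 227, 382 and 221 cells, with next to no cells of other mice. Of its 969 neutrophil-like cells 963 lay in a cluster led by Camp, Ngp and Ltf. Clusters nearly its own held 1421 and 1098 of its 2525 macrophage- and monocyte-like cells. Clusters with few cells of other mice held 799 of 1176 proximal tubule-like and 1747 of 1830 macrophage- and monocyte-like cells of mouse 4. The summed levels and the main example genes below are therefore given with the value in every mouse. Other genes are given by the tested difference only. Between 1 and 96 barcodes of a library occurred in another library.

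The tubular epithelium held the most complex I and III message. Summed over all 52 members, the thick ascending limb-like cells (marked by Slc12a1 and Umod) had 107, 104, 65.1 and 423 member UMIs per 10000 UMIs in mice 1 to 4. The proximal tubule-like cells (Slc34a1, Lrp2) had 67.0, 54.7, 80.2 and 347, and the intercalated-like cells (Atp6v1g3, Foxi1), acid-base transporting cells of the collecting duct, had 74.9, 67.7, 65.4 and 261. The thick ascending limb ranked the highest of 12 classes in mice 1, 2 and 4 and was at rank 3 in mouse 3, where the proximal tubule was the highest.

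Neutrophil-like cells had 14.97, 13.1, 21.1 and 56.7 member UMIs per 10000 and were the lowest of the 12 classes in each of the 4 mice. Endothelial-like cells had 30.9, 30.5, 23.9 and 143, macrophage- and monocyte-like cells 25.3, 25.4, 41.4 and 102, and T lymphocyte-like cells 31.4, 29.9, 35.7 and 113. In every mouse all 6 tubular and capsular epithelial classes with cells in all 4 mice stood above podocytes, endothelium, fibroblasts and leukocytes. Within those 6, neighbours in the order changed places between mice: each stood above the next in only 2 or 3 of 4 mice. The gaps that held in 4 of 4 mice were that between the glomerular capsule epithelium (68.5, 60.2, 45.2 and 234) and podocytes (36.3, 37.7, 29.5 and 150), and that between macrophages and neutrophils. The capsule cells of mice 1, 2 and 4 lay in a cluster that also passed proximal tubule markers (Slc34a1, Slc5a12, Lrp2 and Slc4a4). The part of proximal tubule content in its level was not tested.

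**Figure D1:**
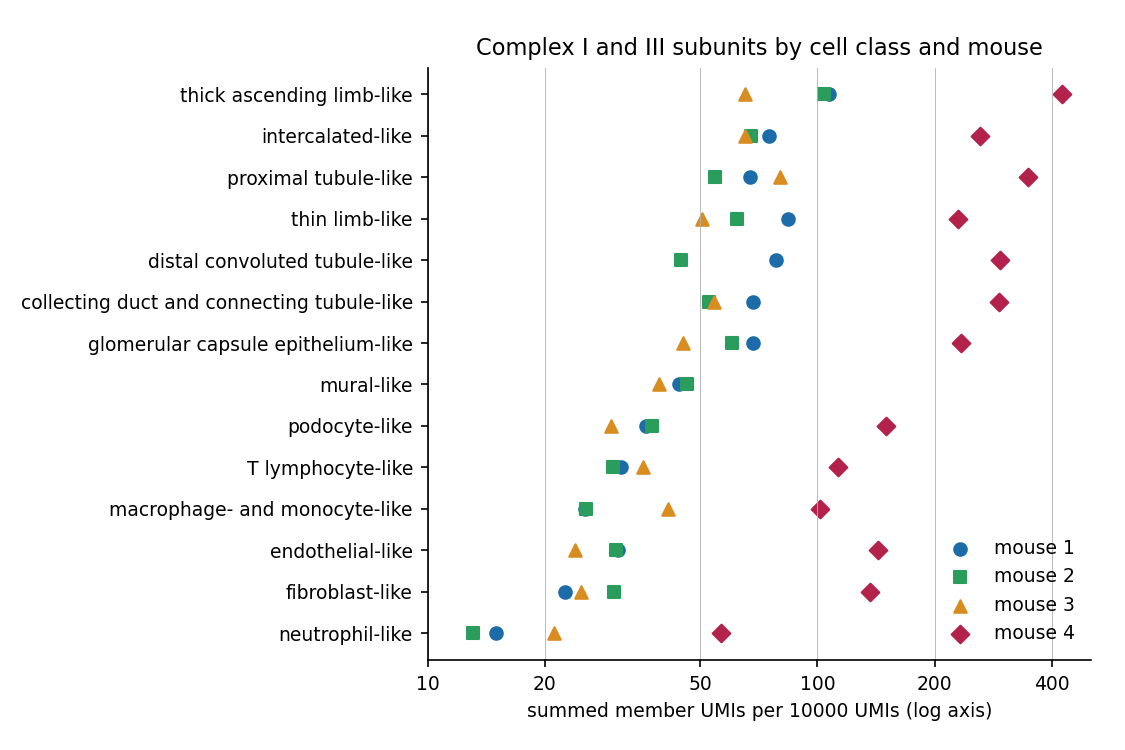
Summed UMIs of the 52 members per 10000 UMIs on a log axis (horizontal) in 14 cell classes (vertical), with a point for each mouse that had 20 cells or more. Mouse 4 lies to the right of the other mice in every class in which it has a point, thick ascending limb-like cells reach 107, 104, 65.1 and 423, and neutrophil-like cells are the lowest in each mouse.

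The low end of the order was shared by most members, the high end by fewer. Of the 47 members with a mean of 5 CPM (a gene's UMIs scaled to 1000000 UMIs of the class in that mouse) or more, 35 had their highest mean among the 12 classes in the thick ascending limb. These means over mice weigh mouse 4 most, since its values were the highest for nearly all members. Mouse by mouse, the thick ascending limb was the highest class in 4 mice for 4 members, and in 3 mice for 18 more. Neutrophils were the lowest class in all 4 mice for 22 members and in at least 3 mice for 34. Ndufa4, with the most UMIs, had 892, 871, 706 and 2885 CPM in the thick ascending limb and 52.5, 42.5, 110 and 183 CPM in neutrophils.

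RNA released by broken tubule cells can add UMIs to leukocyte droplets, so the tubule's own markers were read beside the members. The 9 markers of the early proximal tubule were at 0.891% to 2.34% of their proximal tubule level in neutrophil-like cells, where the members were at 16.3% to 26.3% of theirs. In T lymphocyte-like cells the same markers were at 0.927% to 1.65% and the members at 32.6% to 54.7%. Macrophage- and monocyte-like cells held more of the markers, 3.73% to 6.37%, with the members at 29.3% to 51.6%. Of these markers Gatm passed the marker limits in clusters of this class with 1876, 1550 and 1424 cells. Its part in the higher share was not tested. The 7 markers of the thick ascending limb were at 0.253% to 1.36% of their own level in macrophage- and monocyte-like cells.

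The nuclear-encoded message stood in very different proportion to the mitochondrially encoded one. The 8 mitochondrially encoded genes of the same complexes are mt-Nd1 to mt-Nd6, mt-Nd4l and mt-Cytb. Member UMIs came to 16.8%, 24.6%, 18.5% and 110% of the UMIs of those genes in the thick ascending limb. In the proximal tubule they came to 17.2%, 33.6%, 48.6% and 200%. In neutrophils the share was 36.8%, 74.6%, 57.9% and 191%, and in glomerular capsule epithelium 75.7%, 97.97%, 95.2% and 339%. In mouse 4 the nuclear message thus outweighed the mitochondrial one in these 4 classes, and in mice 1 to 3 it did not. Cells with more than 50% mitochondrially encoded UMIs had been left out (383 to 4388 barcodes per library), which bears on this share.

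Mouse 4 had more member message in every class, and this was unequal among the members. Within the 12 classes, 36 to 45 members were higher in mouse 4 than in each of the other 3 mice, against 16.2% to 28.9% of all genes. The median member was 1.69 to 2.50 higher on the log2 scale than the mean of the others, where the median gene was at -1.03 to -0.48. Over the whole library the CPM of a member in mouse 4 was a median 5.11 times the mean of mice 1 to 3, over the 46 members with 1000 UMIs or more and an annotated coding length, and 44 of these 46 were above 1.

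The excess in mouse 4 was greater for short subunits than for long ones. The ratio of mouse 4 to the others was a median 6.48 for the 25 members with a coding length under 450 bases, 4.70 for the 13 of 450 to under 900 bases, and 2.08 for the 8 of 900 bases or more. Ndufs1, the longest, which carries iron-sulphur clusters of the N module, was at 0.579, and the Rieske iron-sulphur protein gene Uqcrfs1 at 1.61. Ndufb4 of the membrane arm was at 28.2, with 7.96, 7.10 and 7.5 CPM in mice 1 to 3 and 212 CPM in mouse 4. Ndufb4 has near-identical copies between which reads could be split, and its value is uncertain for that reason. All genes showed the same slope: those under 450 bases had a median ratio of 2.42 (812 genes) and those of 900 bases or more 0.601 (8426 genes), so members lay above genes of like length in both ranges. Across members the rank correlation of length and ratio was -0.62 (46 genes), and across all genes it was -0.47 (11586 genes). Genes are not replicates, and all points share the same 4 libraries. The ribosomal share and depth of mouse 4 moved with this difference, and their part in it was not tested.

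**Figure D2:**
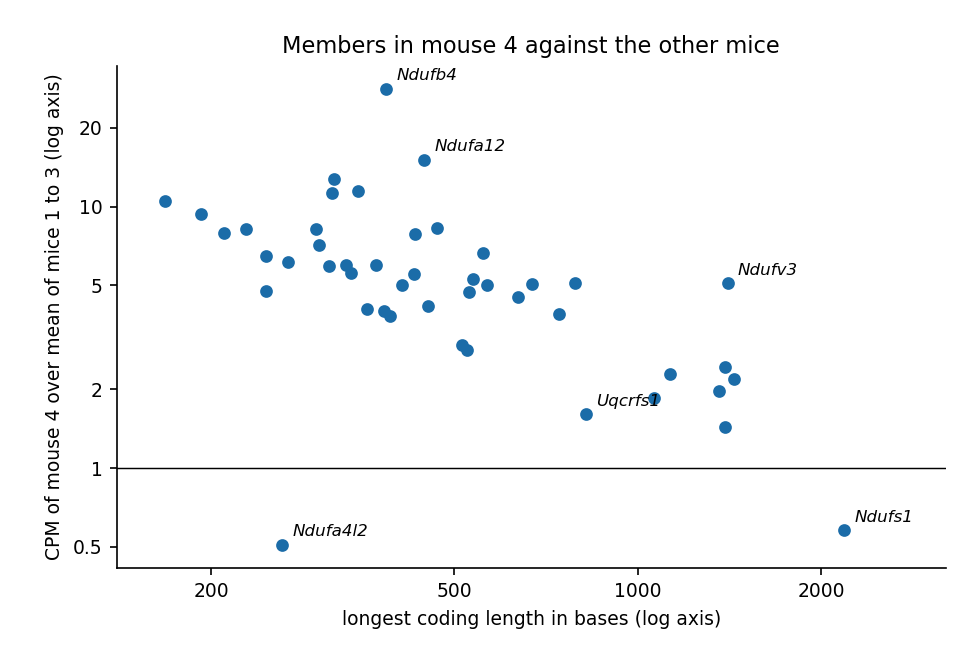
Ratio of the CPM in mouse 4 to the mean CPM of mice 1 to 3 (vertical, log axis) against the longest coding length (horizontal, log axis), with a point for each of 46 members with 1000 UMIs or more and an annotated coding length. Members under 450 bases lie at a median of 6.48 and those of 900 bases or more at 2.08, with Ndufs1 and Ndufa4l2 below 1.

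In several classes, and most steeply in the proximal tubule, member message was higher in cells with less of the nuclear RNA Malat1. Malat1 is a long non-coding RNA retained in the nucleus. Proximal tubule-like cells with Malat1 under 2% of their UMIs had 114, 117, 110 and 478 member UMIs per 10000, and those with 2% or more had 40.1, 21.0, 28.9 and 161. The low-Malat1 cells were thus 2.84, 5.55, 3.81 and 2.97 times as high. In the thick ascending limb the ratio was 2.17, 3.05, 1.99 and 2.02. In distal convoluted tubule-like cells of mice 1, 2 and 4 it was 2.04, 3.35 and 1.59. A cluster of 266 cells led by distal tubule genes, otherwise unnamed, was counted in for that ratio. The ratio was nearer 1 in intercalated-like cells, at 1.497 and 1.29 (mice 1 and 4). It was 1.28 in thin limb-like cells (mouse 4) and 1.23 and 1.08 in collecting duct and connecting tubule-like cells (mice 3 and 4). In macrophage- and monocyte-like cells it was 1.63, 1.44, 1.90 and 1.22, and in T lymphocyte-like cells 1.53, 1.76, 1.45 and 1.19. In endothelial-like cells it was 1.03, 1.11, 1.2 and 1.17, and in neutrophil-like cells 0.984, 1.06, 1.82 and 0.986. The level in the proximal tubule, the thick ascending limb, the distal convoluted tubule and, less steeply, some leukocytes thus moved with the Malat1 share of the cells. Each comparison gives the calls within both strata where enough cells allowed it. The limit of 2% was chosen after seeing the data.

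**Figure D3:**
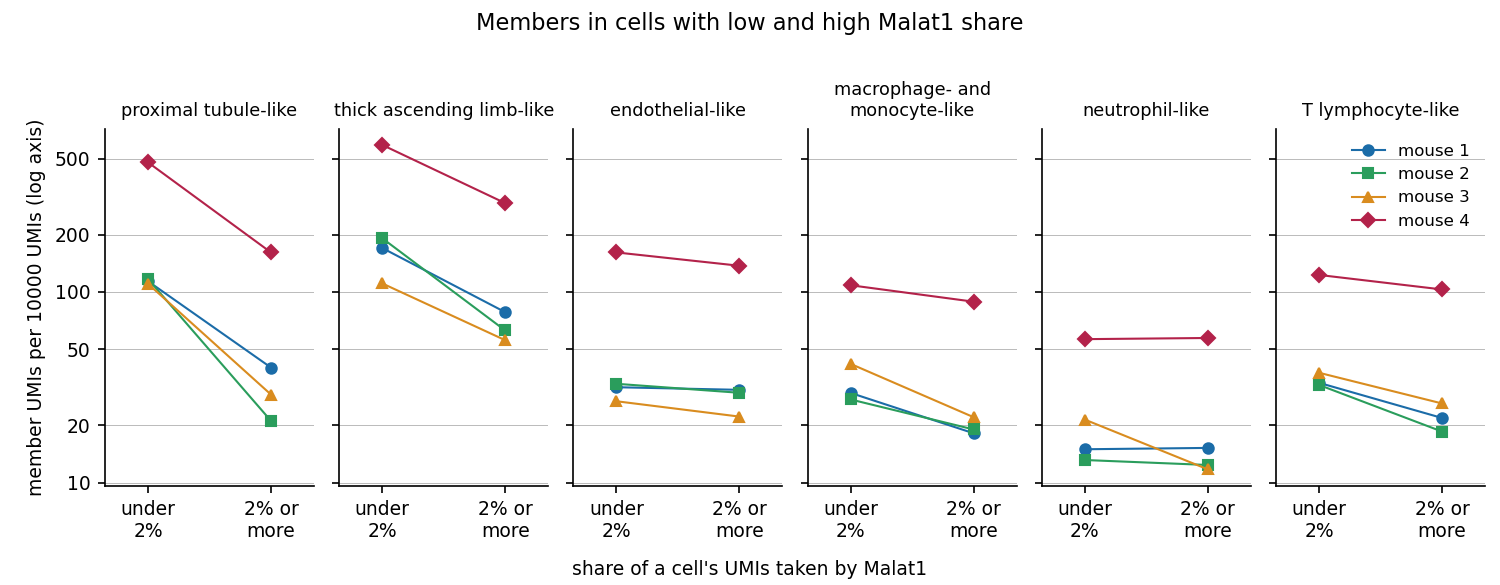
Member UMIs per 10000 UMIs (vertical, log axis) in cells with Malat1 under 2% and of 2% or more of their UMIs (horizontal), in 6 classes, with a line for each mouse. Lines fall steeply in the proximal tubule-like panel (114, 117, 110 and 478 against 40.1, 21.0, 28.9 and 161) and lie nearly flat in the endothelial-like panel.

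Since the members rose and fell together over the classes, the start sites of their genes were read for letters known to bind factors that act on respiratory genes. RefSeq windows of 300 bases, from 250 before to 50 after the annotated start (GRCm38.p6), were matched for 40 of 52 members, and both strands were searched for exact letters. The core letters of nuclear respiratory factor 1 (NRF1), GCGCATGCG, were in 4 of the 40 (10%), against 1.95% of 27025 genes, and the YY1 letters AAGATGGCG in 5 (12.5%), against 1.64%. The ETS letters CCGGAAG were in 6 (15%), against 9.93%, and end in AAG, with which the YY1 letters begin, so that the 2 can overlap. The TATA letters TATAAA were in 4 (10%), against 15.7%, and the oestrogen-related receptor letters TCAAGGTCA in 0, against 0.466%. The windows of 5 genes are shown as examples, each on the strand of its gene, with the letters of the motif it is shown for in capitals (the window of Ndufs7 also holds the TATA letters, left in lower case). They are those of Ndufa11 (chr17:56717512-56717811, plus strand) and Uqcrc1 (chr9:108936398-108936697, plus strand) with the NRF1 letters, Ndufs7 (chr10:80249199-80249498, plus strand) and Ndufa9 (chr6:126849095-126849394, minus strand) with the YY1 letters, and Uqcrh (chr4:116075021-116075320, minus strand) with the ETS letters read on the other strand.
Ndufa11: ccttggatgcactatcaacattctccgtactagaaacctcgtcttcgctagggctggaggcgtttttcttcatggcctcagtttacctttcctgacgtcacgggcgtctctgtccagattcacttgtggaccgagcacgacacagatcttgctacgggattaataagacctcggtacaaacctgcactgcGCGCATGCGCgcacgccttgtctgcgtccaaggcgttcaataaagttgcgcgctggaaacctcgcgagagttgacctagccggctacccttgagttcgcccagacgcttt
Uqcrc1: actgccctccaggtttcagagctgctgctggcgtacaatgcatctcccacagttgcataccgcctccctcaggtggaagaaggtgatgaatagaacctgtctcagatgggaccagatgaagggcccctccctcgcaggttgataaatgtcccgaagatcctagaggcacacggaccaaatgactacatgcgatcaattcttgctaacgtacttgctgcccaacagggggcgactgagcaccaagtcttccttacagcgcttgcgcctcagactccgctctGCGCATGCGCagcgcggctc
Ndufs7: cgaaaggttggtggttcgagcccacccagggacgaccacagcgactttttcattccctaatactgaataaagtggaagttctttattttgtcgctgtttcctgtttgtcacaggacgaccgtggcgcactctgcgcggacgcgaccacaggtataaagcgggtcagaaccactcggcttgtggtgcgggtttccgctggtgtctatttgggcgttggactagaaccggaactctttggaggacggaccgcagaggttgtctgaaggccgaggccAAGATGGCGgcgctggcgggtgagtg
Ndufa9: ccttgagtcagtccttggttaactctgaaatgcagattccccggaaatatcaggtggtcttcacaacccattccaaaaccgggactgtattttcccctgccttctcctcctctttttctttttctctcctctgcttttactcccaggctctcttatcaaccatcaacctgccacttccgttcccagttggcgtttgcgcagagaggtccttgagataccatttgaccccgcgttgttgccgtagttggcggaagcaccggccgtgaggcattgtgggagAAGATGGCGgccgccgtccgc
Uqcrh: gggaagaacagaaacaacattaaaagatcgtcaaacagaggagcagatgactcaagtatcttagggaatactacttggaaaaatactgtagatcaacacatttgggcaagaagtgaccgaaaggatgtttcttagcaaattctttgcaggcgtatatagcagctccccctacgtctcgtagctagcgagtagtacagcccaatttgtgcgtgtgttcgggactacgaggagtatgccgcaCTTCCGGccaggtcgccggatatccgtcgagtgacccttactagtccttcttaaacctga
In the 5 genes with the YY1 letters these began at positions 23 to 36 after the start. In Ndufa11 the NRF1 letters began at position -60, in Uqcrc1 at 31. A match of letters is a description and shows no binding.

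Thick ascending limb-like cells were set against proximal tubule-like cells of the same mice. Uqcrh, the hinge protein of complex III, had 529, 531, 305 and 2152 CPM in the thick ascending limb and 212, 197, 253 and 1313 CPM in the proximal tubule. It was higher in the limb in 4 of 4 mice, by 1.07 on the log2 scale (SE 0.26, edgeR adjusted p = 0.00713). Ndufb11 of the membrane arm had 431, 391, 336 and 1316 CPM against 176, 148, 263 and 773 CPM, a difference of 1.09 (SE 0.24, edgeR adjusted p = 0.00452). Both genes were higher in the limb in every mouse, with the smallest gap in mouse 3.

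By edgeR's quasi-likelihood test with the mouse as a block, 14 of 46 members were higher in the limb, where 19.8% of all tested genes were, and 0 were lower, where 20.2% were. At an unadjusted p under 0.05 the counts were 22 and 1. The median member was 0.53 higher on the log2 scale, the median gene 0.01. Of the 14, 9 lie among the 20 tested members of the membrane arm and 2 among the 8 of the Q module. The N module gave 1 of 8 and complex III 2 of 8. Ndufb7 (1.08), Ndufb9 (1.04), Ndufa7 (1.02) and Ndufa3 (1.00), accessory subunits, followed Ndufb11 and Uqcrh in size.

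Catalytic and core subunits were also compared between the 2 segments. Ndufs1 had a difference of 0.08, the NADH-binding Ndufv1 0.32, the core proteins Uqcrc1 0.41 and Uqcrc2 0.33, Uqcrfs1 0.38 and Ndufa4 0.41, and none of these passed the test. Ndufs1 had 121, 116, 46.7 and 51.0 CPM in the limb and 102, 94.6, 94.0 and 42.6 CPM in the proximal tubule, so that mouse 3 ran the other way. All 8 mitochondrially encoded genes were higher in the limb (median 1.17), as were 9 of 12 tested complex IV genes and 6 of 15 ATP synthase genes. Of 23 assembly factors 4 were higher and 1 lower, and of 4 complex II genes none passed.

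The size of this count changed with each mouse left out. Without mouse 3, 39 members were higher, and without mouse 1, 2 or 4 the counts were 4, 5 and 8. Median Malat1 shares in the limb were 0.337%, 2.10%, 3.52% and 1.71% and in the proximal tubule 2.46%, 2.58%, 0.299% and 0.192%, so the classes differed in it, in opposite directions between mice. Among cells with Malat1 under 2%, 25 members were higher and 1 (Ndufb3) lower, and among cells with 2% or more 43 were higher and 0 lower. Of all genes, 1210 of 6853 were higher and 1271 lower under 2%, and 2663 of 10253 higher and 2438 lower at 2% or more.

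Distal convoluted tubule-like cells (Slc12a3, Trpm6) were set against the thick ascending limb in mice 1, 2 and 4, since mouse 3 had only 2 such cells. Ndufb10 of the membrane arm had 139, 67.3 and 403 CPM in them and 262, 254 and 873 CPM in the limb of the same mice, lower in 3 of 3 (log2 difference -1.48, SE 0.20, edgeR adjusted p = 1.205e-11). Uqcrfs1 had 222, 127 and 144 CPM against 405, 412 and 430 (log2 difference -1.51, SE 0.20, edgeR adjusted p = 2.019e-12). The values of Uqcrfs1 in the 2 classes did not overlap, and those of Ndufb10 did across mice, since mouse 4 was high in both classes.

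In all, 45 of 46 members were lower in the distal convoluted tubule-like cells (19.1% of all genes were) and 0 were higher (13.1% were). The counts at an unadjusted p under 0.05 were the same. On the log2 scale the median member was at -0.998 and the median gene at -0.03. Ndufb4 (-1.42), Ndufv2 (-1.37) and Ndufb7 (-1.34) were among the largest, and Ndufs1 (-0.49) among the smallest of those called. By CPM Ndufs1 was lower in 2 of these mice and higher in 1. Ndufa1, a membrane arm subunit, was the member that did not pass (0.05). All 12 complex IV genes and all 14 ATP synthase genes tested were lower too, and of the mitochondrially encoded genes 1 of 8.

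This class was made almost wholly of high-Malat1 cells: 90 of 91, 65 of 66 and 68 of 73 cells had Malat1 of 2% or more of their UMIs. A cluster of 266 cells also led by distal tubule genes (Calb1, Slc12a3) had stayed unnamed. With that cluster counted in, 13 members were lower and 1 (Ndufa1) higher, where 1053 of 9828 genes were lower and 772 higher. With it and only cells of 2% or more, 8 were lower, where 916 of 8931 genes were. The summed level in these cells was 78.4, 45.2 and 294 per 10000 UMIs, against 78.3, 62.8 and 292 in thick ascending limb-like cells of the same stratum and mice.

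Intercalated-like cells were set against the other collecting duct and connecting tubule-like cells (Aqp2, Scnn1g). By edgeR's test 4 of 46 members were lower in intercalated-like cells, against 10.4% of all genes, and 1 was higher, against 9.15%. Ndufs5, a membrane arm subunit, had 72.6, 53.5, 34.2 and 544 CPM against 128, 101, 54.2 and 911 CPM, lower in 4 of 4 mice (log2 difference -0.83, SE 0.19, edgeR adjusted p = 0.00883). Ndufv3 of the N module (-0.79), Ndufa5 of the matrix arm (-0.77) and Ndufb7 (-0.61) were lower as well. The median member was at 0.06 and the median gene at -0.0049. At an unadjusted p under 0.05 there were 7 higher and 6 lower. Without mouse 1 or without mouse 4 no member was called lower, with 5 and 4 at an unadjusted p under 0.05, and without mouse 3 there were 3 higher and 7 lower. Of the other lists Sdhd of complex II and cytochrome c (Cycs, 0.99) were higher, and 0 of 12 complex IV and 0 of 14 ATP synthase genes passed. Vdac2, a channel of the outer mitochondrial membrane, was lower (-0.62, edgeR adjusted p = 0.0458).

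Proximal tubule-like cells were set against endothelial-like cells (Pecam1, Kdr). Uqcrfs1 had 239, 241, 403 and 343 CPM in the proximal tubule and 61.2, 58.1, 82.4 and 106 CPM in the endothelium, a difference of 2.13 on the log2 scale (SE 0.20, edgeR adjusted p = 8.942e-05). Ndufb6, in the membrane arm, had 137, 109, 165 and 554 CPM against 36.9, 42.8, 35.9 and 126 CPM, a difference of 2.03 (SE 0.25, edgeR adjusted p = 0.000334). For both genes the tubule was the higher in 4 of 4 mice.

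Here 43 of 46 members were higher in the tubule (26% of all genes were) and 0 were lower (24% were), with 44 and 0 at an unadjusted p under 0.05. Members had a median of 1.36 and all genes one of -0.02. Ndufc1 (2.01), Uqcr10 (1.91), Ndufa13 (1.91) and Uqcrq (1.82) followed, and Ndufv1 (1.43), Uqcrc1 (1.46), Ndufs1 (1.31) and Uqcrc2 (1.16) were also called. Ndufc2 (0.30) and Ndufa7 (0.29) were among the 3 that did not pass. All 8 mitochondrially encoded genes (median 2.08), 14 of 15 ATP synthase genes, 11 of 12 complex IV genes and 11 of 23 assembly factors were higher. The Malat1 strata differed. Among cells under 2%, 46 of 46 members were higher with a median of 2.30, where 2709 of 9726 genes were higher. Among cells of 2% or more 1 was higher (Ndufs1), 5 were lower (Ndufa7, Ndufa11, Ndufb7 and Ndufc2 among them) and the median was 0.10. In that stratum 2983 of 11598 genes were higher and 3361 lower, so both member counts lay below the share of all genes.

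**Figure D4:**
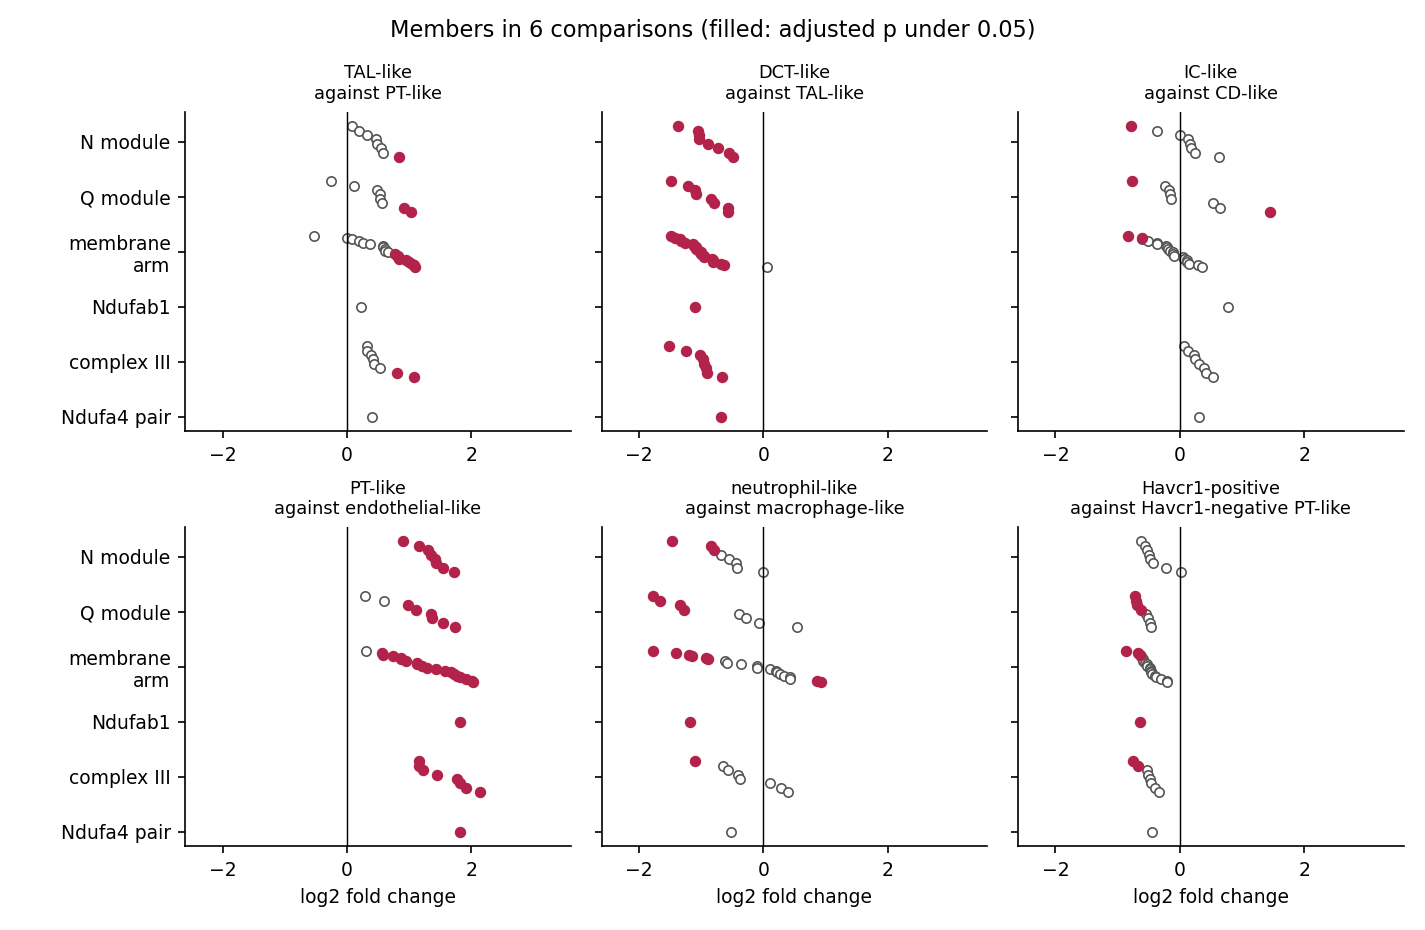
Log2 fold change (horizontal) of each tested member in 6 class comparisons (panels), grouped by place in the complexes (vertical), with filled points for an edgeR adjusted p under 0.05. In the distal convoluted tubule panel 45 of 46 points are filled and left of 0, in the endothelial panel 43 are filled and right of 0, and in the intercalated panel 4 filled points lie left of 0.

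Neutrophil-like cells were set against macrophage- and monocyte-like cells. Ndufc2 had 12.5, 10.7, 59.1 and 35.5 CPM in neutrophils and 73.2, 91.2, 172 and 271 CPM in macrophages, lower in 4 of 4 mice (log2 difference -1.78, SE 0.33, edgeR adjusted p = 0.00539). Ndufa5 had 4.14, 2.51, 17.4 and 30.5 CPM against 29.0, 26.7, 39.5 and 190 CPM (log2 difference -1.77, SE 0.37, edgeR adjusted p = 0.0076). Ndufa3 went the other way, with 48.5, 42.0, 45.5 and 264 CPM in neutrophils and 28.1, 37.7, 54.0 and 226 CPM in macrophages, higher in mice 1, 2 and 4 (log2 difference 0.93, SE 0.31, edgeR adjusted p = 0.0367). The tested differences carry edgeR's scaling between the class sums, which the CPM do not, and in this pair that scaling raised the neutrophil side. Ndufs1, for example, was lower in neutrophils by CPM in 4 of 4 mice, with a tested difference of -0.01. The size of the Ndufa3 difference thus depends on the scaling.

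In this pair of leukocytes 15 of 46 members were lower in neutrophils (25.4% of all genes were) and 2 higher, Ndufa3 and Ndufb9 (21.9% were). Members had a median of -0.43, all genes one of -0.04. Matrix arm genes made up 7 of the 15, with 4 of the 8 tested of the Q module (Ndufa5, Ndufa9, Ndufs3 and Ndufs8) and 3 of the 8 of the N module (Ndufa12, Ndufv1 and Ndufv2). The membrane arm gave 6 of its 20 tested, and Ndufab1 and Uqcrb were the others. Ndufs1 (-0.01), Uqcrc1 (-0.57), Uqcrc2 (-0.66), Uqcrfs1 (-0.38) and Ndufa4 (-0.52) did not pass. Of 23 assembly factors 12 were lower and 1 higher, while 0 of 8 mitochondrially encoded genes passed and 1 of 11 complex IV genes was lower.

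The calls of the 2 higher members changed with the processing and with single mice. With DESeq2 size factors in edgeR, which moved the median gene to -0.25, 21 members were lower and 0 higher. DESeq2's own test, with the median gene also at -0.25, gave 24 lower and 2 higher. Without mouse 1, 2, 3 or 4 the lower counts were 9, 8, 18 and 12 and the higher counts 0, 0, 7 and 0. Neutrophil numbers ran from 3788 cells in mouse 2 to 205 in mouse 4. In mouse 3 both classes came almost wholly from clusters with next to no cells of other mice. Different clusters were thus compared in different mice.

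Proximal tubule-like cells with at least 1 UMI of Havcr1, which encodes the injury marker kidney injury molecule 1, were set against those without. These were 57 of 369, 38 of 172, 288 of 744 and 59 of 1176 cells, at median depths of 3809, 4598.5, 3733 and 1776.5 UMIs. Among macrophage- and monocyte-like cells, which should lack the gene, 2 of 588, 3 of 1233, 51 of 2525 and 0 of 1830 had a UMI of it, at median depths of 3509.5, 7230, 9215 and 2372 UMIs. The share was thus higher in the proximal tubule in every mouse, and the part of free RNA in the positive group was not tested. Ndufc1 of the membrane arm had 71.6, 66.0, 122 and 668 CPM in the Havcr1-positive cells and 136, 130, 157 and 1103 CPM in the negative ones, lower in 4 of 4 mice (log2 difference -0.86, SE 0.18, edgeR adjusted p = 0.00723). Uqcrfs1 had 179, 117, 384 and 225 CPM against 261, 298, 423 and 354 CPM (log2 difference -0.76, SE 0.18, edgeR adjusted p = 0.0209). The gaps were smallest in mouse 3, which gave 288 of the positive cells.

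Of 46 members 10 were lower in the Havcr1-positive cells (2.3% of all genes were) and 0 were higher (0.918% were), and at an unadjusted p under 0.05 the counts were 39 and 0. The median member was at -0.51, the median gene at -0.01. Ndufa5 (-0.72), Ndufs7 (-0.70) and Ndufb3 (-0.67) were called. Of the 10, 4 lie among the 8 tested members of the Q module and 3 among the 20 of the membrane arm. Ndufs1 (-0.22), Ndufv1 (-0.52), Uqcrc1 (-0.52), Uqcrc2 (-0.48) and Ndufa4 (-0.44) did not pass. Of the other lists 8 of 14 ATP synthase genes were lower, and 0 of 11 complex IV and 0 of 8 mitochondrially encoded genes passed.

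The positive cells were deeper and richer in Malat1 than the negative ones. Their median depth was 7467, 8378, 5981 and 3961 UMIs against 3252, 4034, 2596 and 1701, and their median Malat1 share 7.60%, 8.14%, 0.816% and 10.8% against 0.760%, 0.640%, 0.241% and 0.184%. Among cells with Malat1 under 2% the summed member level of positive cells was 1.00, 0.970, 1.02 and 0.885 times that of negative cells, from only 10, 8, 165 and 23 positive cells, too few for a test. Among cells of 2% or more it was 1.56, 1.49, 0.807 and 1.03 times, with 0 members called in either direction by edgeR, 0 at an unadjusted p under 0.05 and a median log2 difference of 0.14 over 45 members. Of all 7607 genes tested in that stratum, 12 were called higher and 29 lower. Without mouse 1, 2, 3 or 4 the lower counts were 0, 1, 8 and 1, and without mouse 1 there were 32 at an unadjusted p under 0.05.

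A few members did not follow the common order. Ndufa4l2, a hypoxia-responsive relative of Ndufa4, had 240, 209 and 35.8 CPM in mural-like cells of mice 1 to 3 (Myh11, Notch3) and 53.5, 38.3, 5.01 and 275 CPM in fibroblast-like cells. It had 1.28 CPM or less in any mouse in the other 12 classes of the plot of departing members. Mouse 3 was the lowest in both. In all 3 markers of mural cells were also detected in the cluster named fibroblast-like (Tagln, Notch3 and Pdgfrb), and their part in its Ndufa4l2 level was not tested.

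Ndufb8 of the membrane arm was highest in thin limb-like cells, with 854, 757, 280 and 2986 CPM against 328, 294, 179 and 1505 CPM in the thick ascending limb. After the member's own mean and the class's median member were taken out, its level there was 3.50 times that of the median member (1.81 ± 0.48 on the log2 scale, SD, n = 4). Ndufc2 stood out in the same way in the endothelium (2.3 times), with 178, 208, 100 and 778 CPM. In neutrophils Ndufa9 was 3.10 times lower and Ndufa5 2.80 times lower than the median member, and Ndufa3 (2.76 times) and Ndufb1 (2.40 times) higher. Ndufa9 had 5.85, 4.06 and 17.7 CPM there in mice 1 to 3 and no UMI in mouse 4, where a count of 0 allows up to 7.61 CPM. The folds were taken from CPM plus 1, so this 0 and the few CPM of Ndufa9 and Ndufa5 in some mice make their folds uncertain.

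Some members overlap a neighbouring gene in the RefSeq annotation, among them Ndufs1 (the lncRNA Ino80dos, by 14704 bases), Ndufa9 (the lncRNA 1700018A23Rik, by 2992 bases) and Uqcrh (a pseudogene, by 1721 bases), and whether the counting used the strand is not given in the sources used here. Reads of such overlapping pairs cannot be told apart with certainty, so the values of these members are uncertain.

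**Figure D5:**
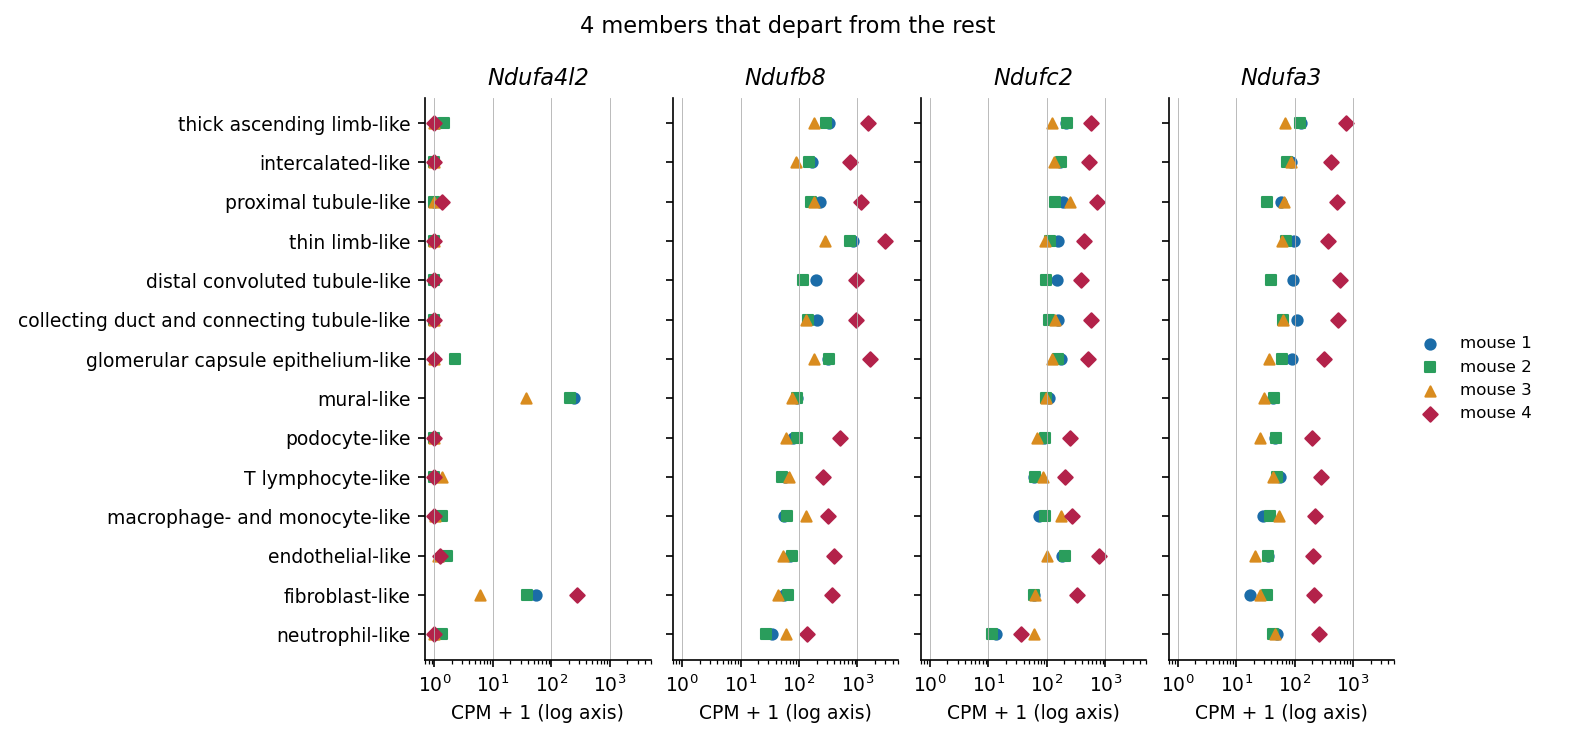
CPM plus 1 (horizontal, log axis) of Ndufa4l2, Ndufb8, Ndufc2 and Ndufa3 in 14 cell classes (vertical), with a point for each mouse. Ndufa4l2 lies near the left edge except in mural-like and fibroblast-like cells, Ndufb8 is highest in thin limb-like cells, and in neutrophil-like cells Ndufc2 is at 12.5, 10.7, 59.1 and 35.5 CPM where Ndufa3 is at 48.5, 42.0, 45.5 and 264 CPM.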

How the data were processed

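The authors deposited filtered gene-by-cell tables of whole UMI counts, processed with Cell Ranger 9.0.1 and Seurat 4.1.1 per the submitters' processing notes; the genome build and annotation are not given in the sources used here. Cells with 500 UMIs, 300 genes and at most 50% mitochondrially encoded UMIs were kept. Scrublet marked 0, 111, 1 and 1 cells in mice 1 to 4, so that doublet calling worked at best in mouse 2; clusters with a mean doublet score over 0.1 stayed unnamed. Cells were clustered with scanpy 1.11.5 (2000 variable genes, 30 components, 15 neighbours, Leiden resolution 1) without respiratory chain, mitochondrially encoded and ribosomal protein genes, and 7991 tubular cells were clustered a further time. A cluster was named ("X-like") from at least 3 markers found in 20% of its cells at 2-fold; these thresholds were set after seeing the clusters, and names rebuilt in this way may differ from the study's.

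Raw counts were summed per mouse and class (20 cells or more) and tested with edgeR 4.0.16 (quasi-likelihood, TMM, filterByExpr, R 4.3.3). The mouse entered as a block because both classes of a comparison come from the same library. P-values were adjusted by Benjamini and Hochberg over all genes tested, and a call is an adjusted p under 0.05. The procedure was tested on simulated counts for the thick ascending limb against the proximal tubule. It called 60% of genes with a true absolute log2 change of 1, 97.8% of those with 2 and 0.00876% of unchanged genes. The simulation gave all genes the same spread and no shift between mice, unlike these libraries. A member that did not pass can thus still differ. P-values refer to these samples only, 4 mice per comparison and 3 for the distal convoluted tubule. The quasi-likelihood fit shares information on the spread across all genes, so a p-value does not rest on the spread of its own gene between mice alone. Intervals and limits for a count of 0 (3 counts) cover counting error only. The files of no 2 libraries agreed within sampling noise, the nearest pair having a chi-square of 101.9 for each degree of freedom.

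Members with values in the text are the called members with the largest change (up to 6 per direction), Ndufv1, Ndufs1, Uqcrc1, Uqcrc2, Uqcrfs1, Ndufa4 and Ndufa4l2, and those that depart most from the common order; other genes named were chosen after their values were seen, and 1 member is counted but otherwise not reported here. The members and lists were chosen with earlier results of these data known. Promoter windows come from RefSeq (GRCm38.p6) and coding lengths from the GENCODE annotation given with the reference. Alternatives covered scaling, test, filters, depth, clustering, doublets, block and each mouse left out, and, added after seeing the data, Malat1 strata and a distal tubule cluster.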

Additional observations from a re-analysis of the deposited data

Results flagged for a closer look

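Of 55 sets of 4 mice examined, 35 had a mouse whose gap to the nearest of the others took up more of the whole range than Dixon's 95% critical value for 4 samples, where chance gives about 1 in 20. In all 35 that mouse was mouse 4. Its summed member level was 423.4 UMIs per 10000 in the thick ascending limb. It was 347.0 in the proximal tubule (353.9 in Havcr1-negative and 274.4 in Havcr1-positive cells), 292.7 in collecting duct and connecting tubule-like, 261.2 in intercalated-like and 233.6 in glomerular capsule epithelium-like cells. It was 149.9 in podocyte-like, 142.7 in endothelial-like, 136.7 in fibroblast-like and 113.0 in T lymphocyte-like cells.

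Member UMIs as a percentage of mitochondrially encoded complex I and III UMIs were likewise far above the other mice in mouse 4. The share was 386.4% in podocyte-like, 339.2% in glomerular capsule epithelium-like, 326.1% in endothelial-like, 311.1% in fibroblast-like and 292.5% in T lymphocyte-like cells. It was 209.2% in Havcr1-negative proximal tubule cells, 195.5% in the collecting duct class and 110.4% in the thick ascending limb.

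Among single members, mouse 4 stood above the others for Uqcrh (2152 CPM in the thick ascending limb and 1313 CPM in the proximal tubule), Ndufb11 (1316 CPM in the thick ascending limb), Ndufb8 (1505 CPM there) and Ndufb6 (554.1 CPM in the proximal tubule and 126.3 CPM in the endothelium). The same held for Ndufs5 in intercalated-like cells (543.6 CPM) and in collecting duct and connecting tubule-like cells (910.7 CPM) and Ndufc2 in the endothelium (778.5 CPM). It also held for Ndufa5 in macrophages (190.4 CPM), Ndufa3 in neutrophils (264.0 CPM) and macrophages (225.6 CPM), and Ndufc1 in Havcr1-positive (668.2 CPM) and Havcr1-negative (1103 CPM) proximal tubule-like cells. Ndufs1 was the exception: mouse 4 stood below the others, at 42.63 CPM in the proximal tubule and 22 CPM in the endothelium. The lower depth and the higher ribosomal share of mouse 4 moved with these values, and their part was not tested.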

How the results depend on the processing

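Of 154 counts of members under the alternatives fixed at the start, 118 stayed within 1.5 times the reported count and 36 did not; of 859 values of single named members, 738 kept their side of the threshold, 107 lost and 14 gained it, and none that was past it in either fit changed direction (Ndufs1 in 2 comparisons and Uqcrc2 in 1 crossed 0 without passing it). With no replicate block the counts of members higher and lower were 0 and 0 for the thick ascending limb against the proximal tubule, the distal convoluted tubule against the thick ascending limb, intercalated against collecting duct cells, neutrophils against macrophages and the Havcr1 groups, and 3 and 0 for the proximal tubule against the endothelium. At an unadjusted p under 0.05 the unblocked counts were 0 and 0, 0 and 4, 2 and 0, 0 and 9, 0 and 0, and 8 and 0 in that order. Leaving out each mouse gave 4 to 39 members higher in the thick ascending limb than in the proximal tubule, 37 to 41 lower in the distal convoluted tubule, 1 to 3 higher and 0 to 7 lower in intercalated cells, 34 to 42 higher in the proximal tubule than in the endothelium, 0 to 7 higher and 8 to 18 lower in neutrophils, and 0 to 8 lower in Havcr1-positive cells.

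For intercalated cells, 2 members were higher with DESeq2 size factors (Ndufs7 among them) and with Leiden resolution 0.5 (Ndufs1 among them), 3 without the filter on low counts (Ndufab1 and Ndufs7 among them), and 0 lower after thinning to 1000 UMIs (3 mice, 43 members, 1 at an unadjusted p under 0.05). For neutrophils, no member was higher with DESeq2 size factors or without the filter (0 in both, with 2 at an unadjusted p under 0.05). DESeq2's own test gave 2 higher and 24 lower. For Havcr1-positive cells, 5 were lower with mitochondrially encoded genes left out and after thinning, and 6 with a mitochondrial limit of 20% and with Leiden resolution 0.5. In mural-like cells the summed level was 66.8 and the share of mitochondrially encoded UMIs 123% with Leiden resolution 0.5, and the share was 42.7% after thinning.

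The Malat1 strata and the distal tubule cluster, added after seeing the data, moved 15 of 22 counts. Under 2%, 25 members were higher and 1 lower in the thick ascending limb, and 0 were higher in neutrophils, where 2830 of 12876 genes were. At 2% or more, 43 were higher in the thick ascending limb, 1 higher and 5 lower in the proximal tubule against the endothelium, 1 higher and 6 lower in neutrophils, and 0 lower in Havcr1-positive cells. In that neutrophil comparison 1439 of 8223 genes were higher and 1910 lower. With the distal tubule cluster counted in, 1 member was higher and 13 lower in the distal convoluted tubule, the same counts (1 and 13) came from cells under 2%, and 1 and 8 from cells of 2% or more. In the cells under 2%, 284 of 5535 genes were higher and 454 lower. At 2% or more 5 named members that were past the threshold in either fit changed direction: Ndufa4 in the distal convoluted tubule with the cluster counted in (0.10), Ndufv1 (-0.16) against the endothelium, and Ndufc1 (0.080), Ndufs7 (0.17) and Uqcrfs1 (0.066) in Havcr1-positive cells. Under 2%, the summed level was 269 in Havcr1-positive cells (2 mice), 153 in fibroblast-like and 272 in thin limb-like cells (1 mouse each), and the share 166%, 340% and 501% in these, and 65.8% in mural-like cells (2 mice); mouse 4 was among the mice left in the first 3 classes.

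The split at 2 or more Havcr1 UMIs, and the Malat1 stratum under 2% for intercalated cells and the Havcr1 groups, gave no value, since fewer than 3 mice held 20 cells in both classes; mouse 3 had no distal convoluted tubule comparison to be left out of. Mouse 4, with a median 2077 UMIs per cell, limits the members with few UMIs most. The cause of these shifts was not tested.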

Other observations

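The 10 regulators of mitochondrial genes followed beside the members differed between the segments in their own ways. The oestrogen-related receptor gene Esrrb had 86.9, 89.5, 55.1 and 39.8 CPM in the thick ascending limb and 4.62, 2.84, 0.454 and 0.699 CPM in the proximal tubule, higher in 4 of 4 mice (log2 difference 5.35, SE 0.35, edgeR adjusted p = 7.99e-07). Ppargc1a, a coactivator of mitochondrial biogenesis, had 270, 309, 142 and 86.1 CPM against 116, 140, 28.8 and 43.3 CPM (1.56, SE 0.24, edgeR adjusted p = 0.000445). Ppara, which acts on fatty acid oxidation genes, went the other way, with 18.6, 18.5, 9.68 and 8.77 CPM in the thick ascending limb and 184, 250, 139 and 159 CPM in the proximal tubule (-3.57, SE 0.22, edgeR adjusted p = 4.65e-07). Nrf1 (-0.71) and Ppargc1b (-0.85) were also lower in the thick ascending limb. In these 3 genes, unlike most members, mouse 4 was not the highest mouse in either segment.

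Against the endothelium, 6 of 9 tested regulators were higher in the proximal tubule (Ppara by 6.64, Esrrg by 5.42, Ppargc1a by 4.95, Ppargc1b by 4.82, Esrra by 1.15 and Tfam by 0.92 on the log2 scale) and Yy1 was lower (-0.69), all with an edgeR adjusted p under the limit of 0.05. In neutrophils against macrophages Ppargc1b (-2.40) and Tfam (-1.54) were lower and Yy1 (1.01) higher. Of the assembly factors, Ndufaf7 was higher in neutrophils (1.49, edgeR adjusted p = 0.00873) where 12 others were lower, and Ttc19, an assembly factor of complex III, was higher in Havcr1-positive cells (0.72, edgeR adjusted p = 0.027), where no other assembly factor passed.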
